A study of Mus musculus with 43 samples.

Results

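The genes of the cytosolic ribosomal proteins were followed across 4 tissues of female mice. Members were all entries of the gene table that name a single gene whose symbol starts with Rpl or Rps and a digit, or is Rplp0, Rplp1, Rplp2 or Rpsa, without pseudogene names ending in -ps and without the Rps6k kinases. The rule found 74 of 42349 entries, 35 with a small subunit name (Rps) and 39 with a large subunit name (Rpl). Of these, 59 were standard subunits (27 small, 32 large), 14 were paralogs or copies of them, and 1, Rps19bp1, is a protein that binds Rps19 and is no subunit. Rplp2 and several others were left out by the rule because the table joins them with genes lying inside them (small nucleolar RNAs, mostly), which gave 18 such joined entries. The mice were wild type (WT, Irs1+/+) or lacked insulin receptor substrate 1 in the whole body (KO, Irs1-/-), and were fed ad libitum (AL) or placed on dietary restriction (DR), which began at 10 weeks of age and was stepped up to 30% less food. RNA came from liver, skeletal muscle, brain and white adipose tissue (WAT) at 15 months of age, after 12 months of DR for the restricted mice. The 43 libraries form 16 groups, 4 in each tissue (2 genotypes on 2 diets), with 2 libraries in each WT AL group and in WT DR of WAT and 3 in the others. The table holds 1 FPKM (fragments per kilobase of transcript, scaled to the size of the library) per group with a 95% interval and no value per library, so no spread between animals can be given. The group sizes stated for the 4 tissues are the same, so the tissues may come from the same mice, and counts over tissues then rest on the same animals. Where 4 values of a tissue stand in a row, they are those of WT AL and WT DR followed by those of KO AL and KO DR.

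A ribosome is built from a small and a large subunit, each a shell of ribosomal proteins around ribosomal RNA. Most of the proteins are needed in equal number. The mRNAs of ribosomal proteins are known for a pyrimidine tract at the 5′ end. Through it the kinase mTOR, a target of insulin signalling, controls their translation. Most ribosomal protein genes have left processed pseudogenes in the genome, copies made from the spliced mRNA, and a few have paralogs used in single tissues.

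The tract can be seen at the annotated starts of the genes. RefSeq start windows (GRCm38.p6) were found for 55 members in 66 windows, and 13 of these windows (19.7%) opened with a C followed by at least 4 pyrimidines (C or T), compared with 2.51% of all 32851 windows. Examples are shown from 15 bases before the annotated start to 15 bases from it on, with the tract in capitals, for the large subunit proteins Rpl15, Rpl35 and Rpl38 and the small subunit proteins Rps6, Rps10 and Rps18, to show how the tract varies in length. The lines give the name, the position and the strand.
Rpl15 chr14:18270972-18271001, minus strand: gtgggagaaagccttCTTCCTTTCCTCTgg
Rpl35 chr2:39005117-39005146, minus strand: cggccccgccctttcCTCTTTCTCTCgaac
Rpl38 chr11:114668565-114668594, plus strand: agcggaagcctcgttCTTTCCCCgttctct
Rps6 chr4:86857353-86857382, minus strand: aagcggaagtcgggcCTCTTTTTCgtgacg
Rps10 chr17:27635230-27635259, minus strand: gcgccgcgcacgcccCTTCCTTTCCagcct
Rps18 chr17:33955651-33955680, minus strand: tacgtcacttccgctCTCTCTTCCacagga
Over the whole windows, from 250 bases before to 50 bases from the start on, and on both strands, CCGGAAG (the core bound by ETS factors) was found in 34.8% of the members' windows and 8.86% of all windows. AAGATGGC (the YY1 core) was in 10.6% against 2.75%, GGGCGG (the GC box) in 56.1% against 35.7%, and TATAAA (the TATA box) in 9.09% against 13.6%. A match describes the letters and says nothing on whether a factor binds there, and the members' windows overlap where a gene has several starts.

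Several members are near-identical copies of others, which bears on every value below because a read from one fits the other. Rps27rt (chr9:114982366-114982739, minus strand) holds the 255-base coding sequence of Rps27 (chr3:90212522-90213651, minus strand) with 0 substitutions, and all 181 of its windows of 75 bases are the same. Rps12l1 (chr7:56014016-56014414, plus strand) likewise holds the 399 coding bases of Rps12 (chr10:23785183-23787275, minus strand) with 0 substitutions. Rpl37rt (chr5:115102923-115110268, minus strand) holds the 294 coding bases of Rpl37 (chr15:5116645-5119140, plus strand) with 1 substitution, G249A, counted from the A of the start codon of Rpl37, and 79.1% of the 220 windows of 75 bases are the same in both. Coding bases 229 to 288 are shown with the base that differs in capitals.
Rpl37: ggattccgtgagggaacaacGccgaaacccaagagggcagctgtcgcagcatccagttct
Rpl37rt: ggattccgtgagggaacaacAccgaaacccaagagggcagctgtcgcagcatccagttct
The first 60 coding bases of Rps27 and its copy are shown to make the identity visible.
Rps27: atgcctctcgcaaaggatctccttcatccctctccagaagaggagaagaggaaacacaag
Rps27rt: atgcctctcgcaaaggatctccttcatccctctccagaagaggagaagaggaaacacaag
GENCODE M21 marks 5 of the 74 members, Rps3a2, Rps3a3, Rpl37rt, Rps4l and Rps12l1, as pseudogenes, although their names lack the usual ending.

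Some facts of the whole series touch these results. Irs1, the deleted gene, had a lower FPKM under the KO label in 1 of 8 genotype comparisons (WAT under DR) and was up-regulated under that label in brain under DR (log2 difference 1.35). Which part of Irs1 is deleted was not given, so KO and WT below are labels that the Irs1 values do not bear out. Summed FPKM of 5 red blood cell genes (haemoglobin chains and Alas2) differed widely between groups, from 2681 to 13569 in liver, 950 to 20283 for muscle, 971 to 9907 for brain and 4297 to 21030 for WAT. The 10 liver markers summed to 3037 FPKM in muscle of WT DR mice and to between 27.4 and 136 in the other muscle groups. Each tissue held the markers of its label. In these pooled values fewer cells of a type and less RNA per cell cannot be told apart.

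Ribosomal protein genes were among the more abundant mRNAs in every group, and by median FPKM brain held least of them. The median FPKM of the 59 standard subunits was 111, 214, 193 and 236 in the groups of liver. It was 86.1, 121, 136 and 167 for muscle, for brain 48.0, 62.3, 76.0 and 41.3, and in WAT 127, 143, 159 and 181. The WT AL group thus had the lowest median of the 4 groups in liver, muscle and WAT, and KO DR had the lowest in brain. In all 16 groups the small subunit median of the genes without their copies lay above the large subunit median, by a ratio of between 1.14 and 1.89. With each gene summed with its named copies, this order did not hold in every group. The large subunit median was then the higher one in KO DR muscle and in WT AL and KO DR brain. All 74 members together made up between 0.684% (muscle, WT AL) and 2.88% (WAT, KO AL) of all FPKM. By this share the order differed from that of the medians. Brain had 1.32%, 1.00%, 1.48% and 1.10% and muscle 0.684%, 0.913%, 0.926% and 1.27%, so that muscle held less than brain except in KO DR.

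**Figure D1:**
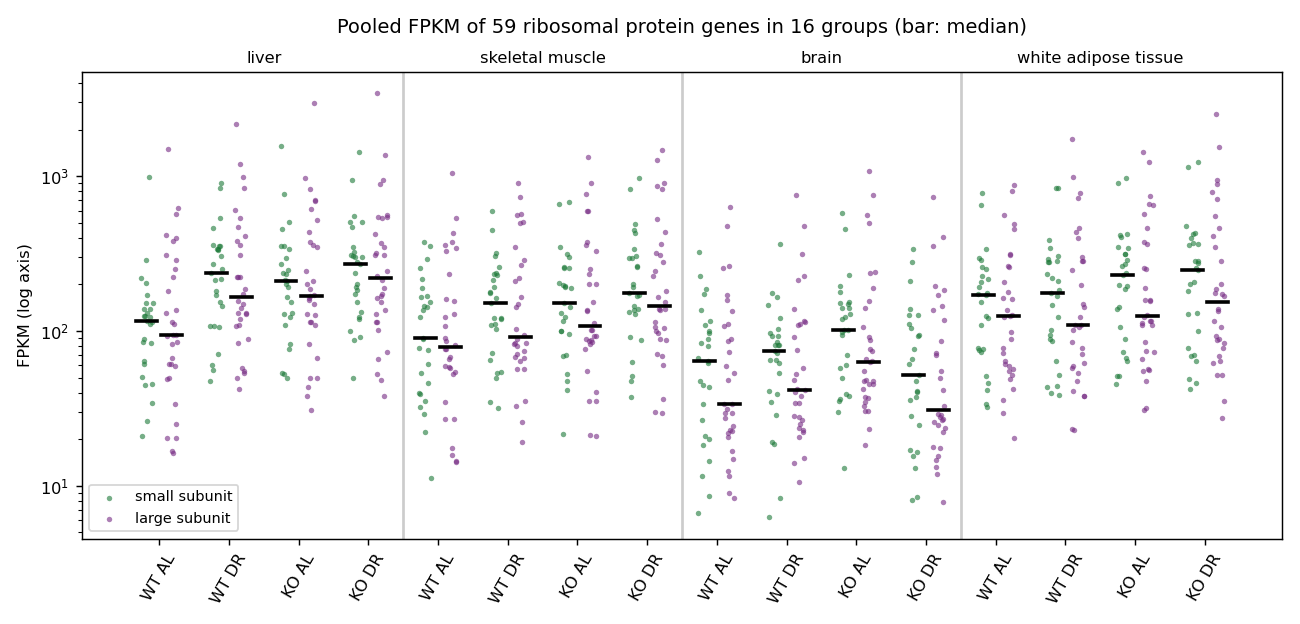
Pooled FPKM (log axis) of 59 standard ribosomal protein genes in the 16 groups, with small subunit genes in green, large subunit genes in purple, 1 point per gene and a black bar at the median. The brain medians are the lowest, and in every group the small subunit bar lies above the large subunit bar, for genes without their copies.

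Within a group the members covered a wide range, although most of their proteins are used in equal number. The lowest standard subunit in WT AL liver was Rpl31 at 16.2 FPKM and the highest was Rpl41 at 1508. Summed with the 22 entries named as its copies, Rpl31 had 1399 there, while Rpl41 has no named copy. In other groups the lowest were Rpl36a, Rpl17, Rpl9, Rps12 or Rps21. Of the FPKM summed with copies, Rpl36a itself held 13.3%, Rpl17 5.08%, Rpl9 3.25% and Rps12 2.73%, and Rps21 has no named copy. Part of the range thus depends on how reads were shared with copies. Rpl41, the smallest ribosomal protein, had the highest mean of the 4 groups in liver (2521), brain (733) and WAT (1578). In muscle Rpl37rt (1267) and Rps27rt (1104) came before Rplp1 (1030), which encodes a protein of the stalk that binds elongation factors. At the other end, Rpl10l, a paralog used in the male germ line, was listed at 0 in 15 groups and at 0.067 in KO DR muscle. Rpl39l, a paralog of Rpl39, was listed at 0 in all liver groups and reached 1.51 at most (KO AL muscle). Rps19bp1 (7.58 to 23.4) and Rpl7l1 (8.57 to 36.4), which serves in making the large subunit, were also low in every group. In all, 71 members had at least 1 FPKM in every group, 2 (Rpl3l and Rpl39l) in some, and Rpl10l in none.

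Between tissues, most members were lowest in brain and highest in liver. By the mean of the 4 groups, brain was the lowest tissue for 56 of 59 standard subunits. The highest was liver for 37, WAT for 17 and muscle for 5. The comparisons of tissues are of the genes alone and were not repeated with copies summed. Summing changed which tissue was lowest for some genes, such as Rpl9 and Rpl34. All 4 brain values lay below all 4 liver values for 36 of the 59 genes, below all muscle values for 30 and below all WAT values for 46. Of all 14816 tested entries 30.4% lay below liver in this way, 27.4% below muscle and 29.2% below WAT. The mean log2 FPKM of the 4 brain groups was lower than that of the other 12 groups for 70 of 71 tested members, with a median difference of -1.32 (small subunit -1.27, large subunit -1.38) beside -0.01 for all 14816 tested entries. Members were down-regulated in 64 cases and up-regulated in 1 (two-sided Wald test, FDR 10%), where 28.6% of all tested entries were lower and 30.8% higher. The one up-regulated member was Rps4l (1.15), and Rpl14, Rpl29, Rpl31, Rpl7l1, Rps10 and Rps19bp1 did not pass. Short transcripts in general were low in brain. All single entries under 600 bases had a median of -0.71 and those of 4000 bases or more 0.70, while the 24 members under 600 bases had -1.41. The part of transcript length in the members' difference was not tested.

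The members with the smallest p in brain were mixed in role. Rplp0, the base of the stalk, had 135, 116, 155 and 136 FPKM in brain and between 289 and 898 elsewhere. Its log2 difference was -2.24 (SE 0.27), with no overlap between brain and the other groups. Rpl39, a small protein at the peptide exit tunnel, differed by -2.03 (SE 0.25) and Rps26, at the mRNA exit site, by -2.12 (SE 0.29). The largest difference was that of the paralog Rps27l, -3.90 (SE 0.55).

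In liver 49 of 71 members were up-regulated against the other tissues and 0 down-regulated, with 70 of 71 higher and a median of 0.73, beside a median of -0.07 and 25.4% up-regulated and 25.2% down-regulated entries overall. The one member below 0 was Rps24 (-0.06, SE 0.25). Rps18 had 221, 539, 457 and 505 FPKM in liver and differed by 1.36 (SE 0.28), and Rpl34 by 1.15 (SE 0.24). WAT had 20 up-regulated and 2 down-regulated members (median 0.46, all entries 0.08), where 20.3% and 11.8% of all tested entries passed. Rps13 led these with 207, 88.4, 232 and 254 FPKM in WAT, a difference of 1.76 (SE 0.30), and 19.2 to 123 in the other tissues. Rpl17 (1.02) and Rpl22 (1.16) were also up-regulated in WAT, and the paralogs Rpl22l1 (-0.73) and Rpl36al (-0.90) were the members down-regulated. Summed with its 7 named copies, however, Rpl17 had 468, 657, 769 and 1094 FPKM in WAT and 678, 883, 1122 and 1029 in liver. Rps13, also summed with 7 named copies, had 1638, 900, 1979 and 2111 in WAT and 944, 1101, 1347 and 1597 in liver, with overlap. Muscle had 13 up-regulated and 5 down-regulated members, where 20.1% and 26.9% of all entries passed, and its median of 0.13 lay beside -0.16 for all. Rplp0 (1.00, SE 0.27) and Rps25 (0.65, SE 0.21) were up-regulated in muscle. Rpl17 (-0.57), Rpl41 (-0.69), Rps19 (-0.71), Rps19bp1 (-0.74) and Rps4l (-1.98, SE 0.68) were down-regulated.

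Several paralogs had patterns of their own across tissues. Rpl3l (chr17:24727820-24736143), which replaces Rpl3 in striated muscle, had 314, 410, 395 and 510 FPKM in muscle and at most 2.36 elsewhere. That highest value outside muscle was in KO AL WAT, where Rpl3l was at 0.182 in WT AL and where the 12 skeletal muscle markers summed to 1251 FPKM against 532 in WT AL. Rps27l, a paralog of Rps27 known as a target of p53, had 65.7, 195, 72.3 and 122 FPKM in liver and 35.4, 97.8, 35.9 and 44.9 in muscle. It was highest in WT DR in both tissues, ranged from 27.2 to 36.4 in WAT and reached at most 6.59 in brain. The liver difference was 2.52 (SE 0.29) and the muscle difference 1.07 (SE 0.31), both up-regulated.

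Rpl36al, a paralog of Rpl36a, had 835, 522, 946 and 885 FPKM in liver and 62.5 to 170 in brain, and was up-regulated in liver by 2.24 (SE 0.25) and down-regulated in brain by -1.87 (SE 0.25). Its parent Rpl36a lay between 7.89 and 48.0 in all groups. Rpl22l1, a paralog of Rpl22 that can take its place in the ribosome, was up-regulated in muscle by 0.76 (SE 0.23). It had 93.8, 92.1, 139 and 108 FPKM there, and 41.0, 34.5, 54.9 and 74.4 in WAT, where Rpl22 had 314, 402, 570 and 796. Muscle and WAT thus did not overlap for Rpl22l1, and its highest value among the 16 was in KO AL muscle. Rpl3 and Rpl10, the parents of Rpl3l and Rpl10l, sit in joined entries, whose FPKM ranged from 14.3 to 120 and from 19.2 to 252.

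**Figure D2:**
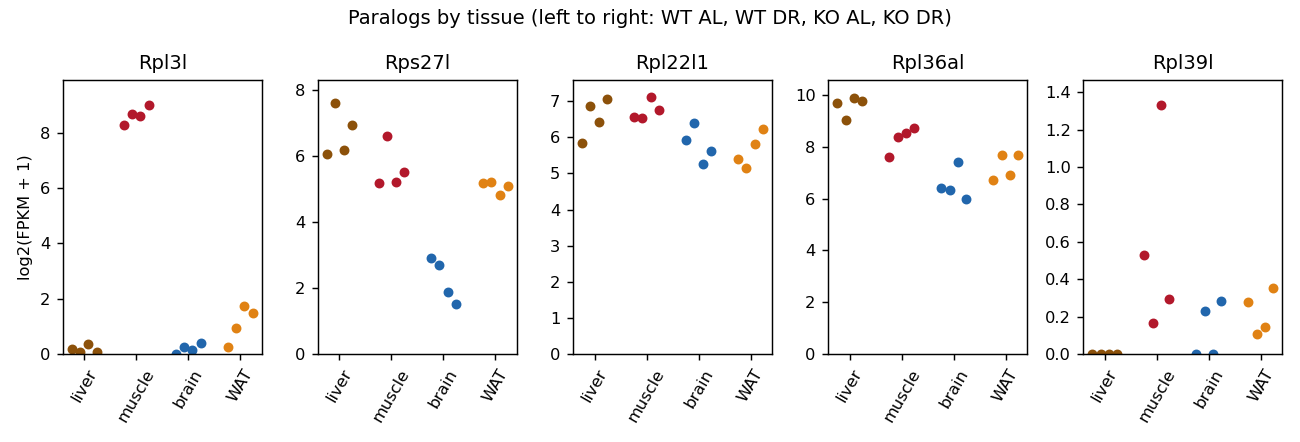
log2(FPKM + 1) of 5 paralogs by tissue, with 1 point per group (AL then DR, WT before KO) on separate scales. Rpl3l is high in muscle only among the 4 tissues, Rps27l is lowest in brain, and Rpl39l stays under 1.4 in every group.

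Copies held most of the measured FPKM of several families, so that values of single genes depend on how the authors' software shared reads. Rpl37rt had between 17.0 and 41.6 times the FPKM of Rpl37, Rps27rt between 9.43 and 32.8 times that of Rps27, and Rps12l1 between 7.42 and 27.3 times that of Rps12. Rps3a2 had 1.70 to 3.15 times the FPKM of Rps3a1, and in these 4 pairs the copy was higher in all 16 groups. The 254 entries with pseudogene names summed to between 1.40 and 2.57 times the members' FPKM, and 68 of them had a mean of at least 100 FPKM, led by Rpl38-ps2 (1465) and Rpl34-ps1 (1314). Of the 59 standard subunits 44 have such a named copy, and the median share of FPKM in the gene itself was 20.6%, with 33 genes under 50%. When each of the 59 standard genes was summed with its copies before the comparison, their median log2 difference moved by between -0.43 and 0.22 over the 16 comparisons, and the values that moved most are given beside their results.

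**Figure D3:**
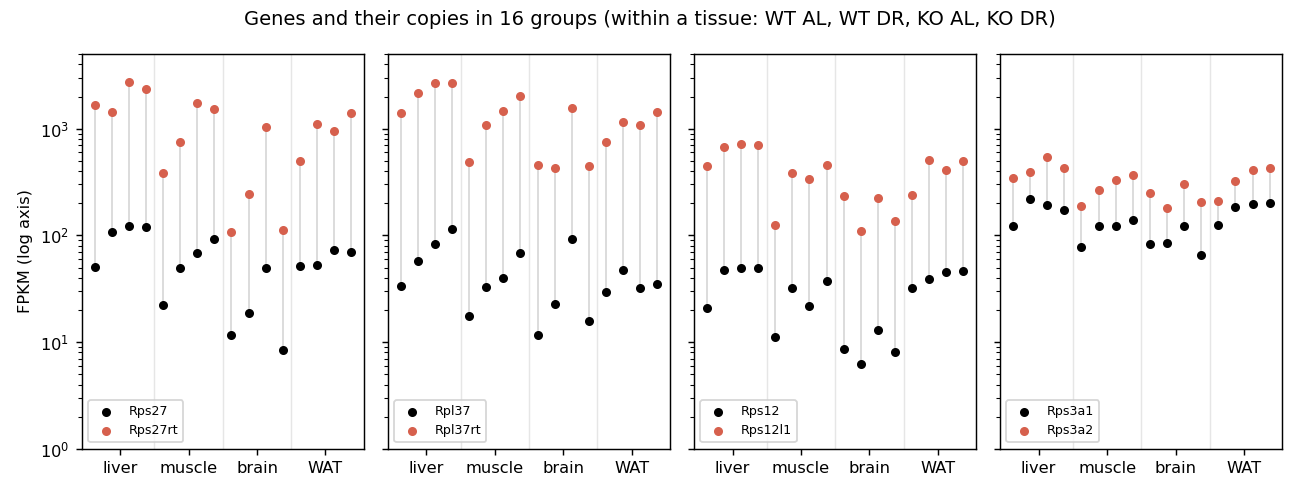
FPKM (log axis) of 4 genes (black) and their copies (red) in the 16 groups, ordered within each tissue by genotype and then diet, with a grey line joining the values of 1 group. The red point lies above the black one in all 16 groups of each panel.

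Differences between groups of 1 tissue were taken as log2 ratios of the pooled FPKM, with a standard error (SE) from the deposited intervals and a Wald test adjusted over all tested entries of the comparison (FDR 10%). How the interval relates to the number of libraries is not stated, so a second SE, in which the SD is divided by the square root of the number of libraries, was also used and is called the smaller SE. In each tissue the comparisons of KO AL and of WT DR with WT AL share the WT AL group and its 2 libraries, and so are not independent. Members sharing reads with copies are not independent of each other either.

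**Figure D4:**
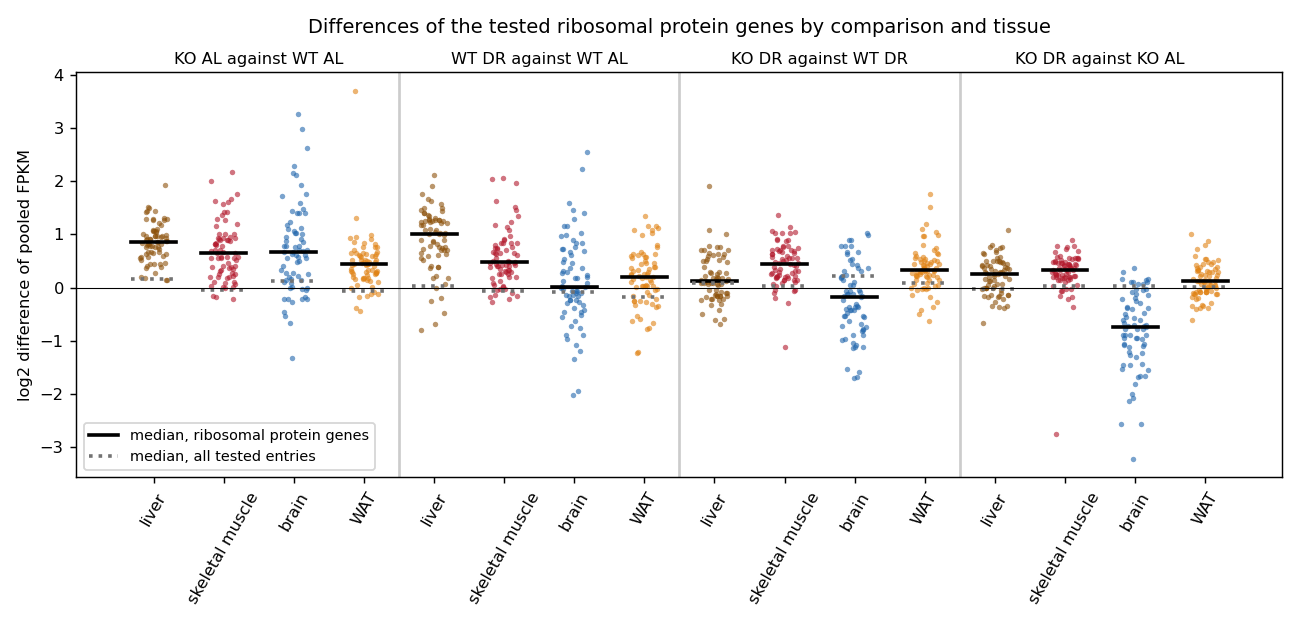
log2 differences of pooled FPKM of the tested ribosomal protein genes in 16 comparisons, coloured by tissue, with 1 point per gene, the genes' median as a black bar and the median of all tested entries as a dotted bar. The black bar lies at 0.87 for KO AL against WT AL in liver and at -0.74 for KO DR against KO AL in brain.

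In liver each of the 71 tested members lay above WT AL in the KO-labelled AL group, with log2 differences from 0.14 (Rps27l) to 1.94 (Rpl37a). The median was 0.87, the same in both subunits (0.87 and 0.87), beside 0.16 for all 13614 tested entries, of which 61.4% were higher. None passed the FDR in the Wald test, which 0.316% of all entries did. A total of 9 had an unadjusted p under 0.05 and 7 passed with the smaller SE, with which 1.54% of all entries passed. The median SE of a member was 0.61.

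Rpl37a, a zinc-binding protein of the large subunit, had 48.7 FPKM in WT AL and 186 in KO AL liver, with intervals that did not overlap (16.7 to 80.7 and 90.4 to 282), and a difference of 1.94 (SE 0.60). Rps16 had 125 and 357 (1.52, SE 0.54) and Rps15 had 286 and 772 (1.43, SE 0.55), and none of the 3 passed over all entries. Rps26, at 205 and 507, passed with the smaller SE alone (1.31, SE 0.56), and Rpl17 and Rpl31 differed by 0.91 (SE 0.66) and 1.43 (SE 1.45). With named copies summed, Rps16 had 1163 FPKM in WT AL and 2014 in KO AL, Rps15 1692 and 2584, and Rps26 1693 and 2912. Rpl37a has no named copy. The 5 red blood cell genes had a median difference of 2.25 in the same comparison and the 12 skeletal muscle markers summed to 89.6 FPKM in KO AL against 2.56 in WT AL. Their part in the members' difference was not tested.

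Liver of WT DR mice also lay above WT AL for most members. Of 71 members 65 were higher, with a median of 1.01 (small subunit 1.18, large subunit 0.95), beside 0.03 for all tested entries, of which 51.9% were higher. With copies summed, the median of the 59 standard subunits was 0.65 in place of 1.08, with 52 of 59 higher in place of 55. None passed the FDR, which 0.236% of entries passed, and 18 had an unadjusted p under 0.05. With the smaller SE 17 members were up-regulated, 13 of the small and 4 of the large subunit, where 2.86% of all entries passed.

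Rps16, a protein near the decoding site, had 125 FPKM in WT AL and 466 in WT DR liver (1.90, SE 0.57), with intervals of 52.6 to 197 and 215 to 716 that did not overlap. Rps15 had 286 and 901 (1.66, SE 0.58) and Rps23, which takes part in decoding, 61.0 and 171 (1.49, SE 0.55). The highest difference was that of Rpl38, from 20.4 to 88.8 (2.12), and the lowest that of Rpl14, from 628 to 360 (-0.80). These are values of the genes alone, and the groups lay closer with named copies summed. Rps16 then had 1163 FPKM in WT AL and 1980 in WT DR, Rps15 1692 and 2131, and Rps23 667 and 1048. Rpl38 had 808 and 2231, and Rpl14 had 957 and 865. The red blood cell genes had a median difference of 0.43 here, against 2.25 in the genotype comparison under AL.

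Under DR the 2 genotypes lay close together in liver. The median of 71 members in KO DR against WT DR was 0.12 (all entries 0.09), 46 were higher, and 0 passed the FDR (0.288% of all entries), with 2 at an unadjusted p under 0.05 and 3 by the smaller SE (2.64% of all). These were Rpl37a, which had 83.2 FPKM in WT DR and 311 in KO DR (1.90, SE 0.67), Rps29 (1.08) and Rpl37 (1.00). Summed with its named copy, Rpl37 had 2240 FPKM in WT DR and 2790 in KO DR. The FPKM of Rpl37a was thus higher under the KO label on both diets. For KO DR against KO AL the median was 0.26 (all entries -0.03) with 51 of 71 higher and 0 past the FDR (0.611% of all), and the standard subunits had 0.30 alone and 0.09 with copies summed. One member, Rps29, had an unadjusted p under 0.05 and passed with the smaller SE (4.8% of all), going from 153 to 324 FPKM (1.08, SE 0.46). The difference of differences, KO DR minus WT DR less KO AL minus WT AL, was below 0 for 65 of 71 members with a median of -0.70 (all entries -0.09). It passed for 0 members by either SE and had no unadjusted p under 0.05, where 0.086% and 0.803% of all entries passed. Its largest were Rpl38 (-1.70), Rps14 (-1.66, SE 0.86), Rps16 (-1.39, SE 0.75) and Rps15 (-1.36, SE 0.78), and a typical SE of 0.85 exceeded the median.

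In skeletal muscle 70 of 73 members lay above WT AL in the KO-labelled AL group, with a median of 0.66 (small subunit 0.72, large subunit 0.57) beside -0.05 for all entries, of which 46.9% were higher. The test passed 0 members, where 0.681% of all entries passed, with 7 at an unadjusted p under 0.05 and 8 by the smaller SE (3.64% of all). Rps27rt had 384 and 1741 FPKM in WT AL and KO AL (2.18, SE 0.77), Rpl37a 26.9 and 85.2 (1.66, SE 0.68) and Rps29, a zinc-binding small subunit protein, 29.0 and 116 (2.00, SE 0.83). Intervals of all 3 genes overlapped between the groups (for Rps27rt 167 to 600 and 152 to 3331). The red blood cell genes had a median difference of 4.04 here and 4 of 5 were up-regulated. Their part in the members' difference was not tested.

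WT DR muscle lay above WT AL for 63 of 72 members, with a median of 0.48 (all entries -0.06, 45.7% higher). No member passed, where 1.4% of all entries did, with 4 at an unadjusted p under 0.05. By the smaller SE 5 were up-regulated (6.37% of all entries passed), namely Rps12l1, Rps29, Rps27l, Rpl37rt and Rps27rt, of which Rps29 is the one standard subunit. Rps12l1 had 125 FPKM in WT AL and 387 in WT DR (1.62, SE 0.58), Rps29 29.0 and 121 (2.06, SE 0.76) and Rps27l 35.4 and 97.8 (1.47, SE 0.68).

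KO DR lay above WT DR in muscle for 65 of 72 members, with a median of 0.45 (all entries 0.04). No member passed (2.23% of all entries did), 2 had an unadjusted p under 0.05, and by the smaller SE 10 were up-regulated and Rps27l down-regulated, where 10.7% of all entries passed. Rpl41 had 574 and 1474 FPKM (1.36, SE 0.55) and Rps26 193 and 429 (1.15, SE 0.56), while Rps27l went from 97.8 to 44.9 (-1.12, SE 0.60). The liver markers were at 3037 FPKM in the WT DR group and 136 in KO DR, and the red blood cell genes were at 1553 in WT DR and 20283 in KO DR (median difference 4.08, 2 of 5 up-regulated). The part of either list was not tested. KO DR lay above KO AL for 64 of 73 members with a median of 0.34 (all entries 0.03), and 0 members passed or had an unadjusted p under 0.05 by either SE (0.5% and 2.69% of all entries passed). The difference of differences had a median of -0.21 (all entries 0.08), with 0 members past the FDR or under an unadjusted p of 0.05, where 0.371% of all entries passed and 2.77% by the smaller SE. Rps29 had the smallest p (-1.82, SE 1.02).

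In brain Rpl37, Rpl37a, Rpl39 and Rps27rt were the members that passed the test in at least 1 comparison of genotype or diet. In the KO-labelled AL group 57 of 71 members lay above WT AL, with a median of 0.66 (all entries 0.13) and a range from -1.31 (Rps27l) to 3.26 (Rps27rt). None passed the FDR (0.203% of all entries did), 6 had an unadjusted p under 0.05, and 5 were up-regulated by the smaller SE, with which 1.41% of all entries passed. These 5 were Rpl37, Rpl37a, Rps26, Rps27rt and Rps29. In the same comparison the red blood cell genes had a median difference of 3.15 (5 of 5 higher, 0 past the FDR) and the 9 tested skeletal muscle markers 3.67 (9 of 9 higher, 0 past the FDR), and their part was not tested. WT DR against WT AL had a median of 0.02 (all entries -0.08), with 37 of 71 higher. The sign depended on the setting, with -0.17 when copies were summed (24 of 59 standard subunits higher, 34 of 59 for the genes alone) and -0.05 for members of 600 bases or more. The 71 members covered a range from -2.02 (Rps15a) to 2.54 (Rps21). Again none passed (0.224% of entries did). A total of 6 had an unadjusted p under 0.05, and the same number, with 4 higher (Rpl37a, Rpl39, Rps21 and Rps23) and 2 lower (Rps10 and Rps12l2), passed by the smaller SE (1.73% of all). Rps10 had 186 and 74.1 FPKM in WT AL and WT DR (-1.33, SE 0.58), and Rps21 had 6.71 and 39.0 (2.54, SE 1.13).

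Under DR more members lay below than above WT DR in the KO-labelled brain. Of 71 members 26 lay above WT DR and 45 below, with a median of -0.17, while the median of all entries was 0.23 and 64.9% of them were higher. With copies summed, the median of the 59 standard subunits was -0.01 with 29 higher, in place of -0.24 with 20 higher for the genes alone, so the predominance of lower values did not hold under that setting. One member, Rpl39, was down-regulated, where 1.16% of all entries passed, 5 had an unadjusted p under 0.05, and by the smaller SE 5 were up-regulated and 15 down-regulated, where 18.5% of all entries passed. Rpl39 had 75.7 FPKM in WT DR and 23.4 in KO DR, with intervals of 46.1 to 105 and 10.7 to 36.1 that did not overlap (-1.69, SE 0.48). The 24 members under 600 bases had a median of -0.58, but all single entries of that length had 0.17. The red blood cell genes had a median difference of 1.80, and 3 of the 5 were up-regulated.

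KO DR brain lay below KO AL for 61 of 71 members, with a median of -0.74 (small subunit -0.77, large subunit -0.70) beside 0.03 for all entries. Rpl37 and Rps27rt were down-regulated, where 0.365% of all entries passed, and 13 had an unadjusted p under 0.05. By the smaller SE 18 members were down-regulated and 0 up-regulated, where 4.33% of all entries passed. Rpl37, a zinc-binding protein of the large subunit, had 91.7 FPKM in KO AL and 15.6 in KO DR, with intervals of 32.9 to 151 and 7.55 to 23.7 (-2.55, SE 0.59). Rps27rt had 1042 and 112 FPKM, but its intervals, 28.2 to 2056 and 39.9 to 185, overlapped (-3.21, SE 0.84). The red blood cell genes were also lower in KO DR, with a median difference of -1.12, and the summed level of the list was 9907 in KO AL, 3475 in KO DR, 1032 in WT AL and 971 in WT DR. The 10 tested skeletal muscle markers had a median of -2.30. The part of these lists in the members' difference was not tested.

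The difference of differences in brain, which asks whether the genotype difference depended on the diet, passed for 4 members, all below 0, where 0.396% of all entries passed. A total of 13 members had an unadjusted p under 0.05, and 15 passed below 0 by the smaller SE (5.15% of all). The median of 71 members was -0.82 (small subunit -0.32, large subunit -0.86) beside 0.10 for all entries, and 55 were below 0. Among the standard subunits alone the small subunit median was -0.96 and the large -0.86. Rps21 (-3.74, 95% interval -6.68 to -0.81) had a larger difference than some members that passed but did not pass itself. Rpl37a had 8.93 FPKM in WT AL, 42.1 in WT DR, 55.2 in KO AL and 13.2 in KO DR brain. It was low in WT AL and KO DR and higher in the other two, and the WT DR interval (21.7 to 62.5) did not overlap that of WT AL, while the KO AL interval (10.8 to 99.6) overlapped all. The difference of differences was -4.30 (SE 1.10). Rpl37 had 11.6, 22.8, 91.7 and 15.6 FPKM, with KO AL alone standing above the rest without overlap of the intervals (-3.52, SE 0.94). Rpl39 had 27.5, 75.7, 74.6 and 23.4 FPKM, so that WT DR and KO AL were both high (-3.13, SE 0.87). This pattern did not hold with its named copy, as the gene held 11.6% of their summed FPKM in brain. Summed, they had 463, 541, 469 and 269 FPKM, with KO AL near WT AL. Rps27rt had 109, 244, 1042 and 112 FPKM with overlapping intervals (-4.38, SE 1.20). Rpl37, Rpl37a and Rpl39 encode short proteins of the large subunit, and Rps27rt is the copy of Rps27. The copy Rpl37rt had 461, 433, 1555 and 446 FPKM in brain, highest in KO AL as Rpl37 was, and Rps27 was also highest in KO AL, as Rps27rt was. With a t distribution in place of the normal distribution 0 members passed in KO DR against WT DR, in KO DR against KO AL or in the difference of differences in brain, with no minimum FPKM Rpl39 no longer passed in the difference of differences, and at an FDR of 5% Rpl37a alone passed in the difference of differences.

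**Figure D5:**
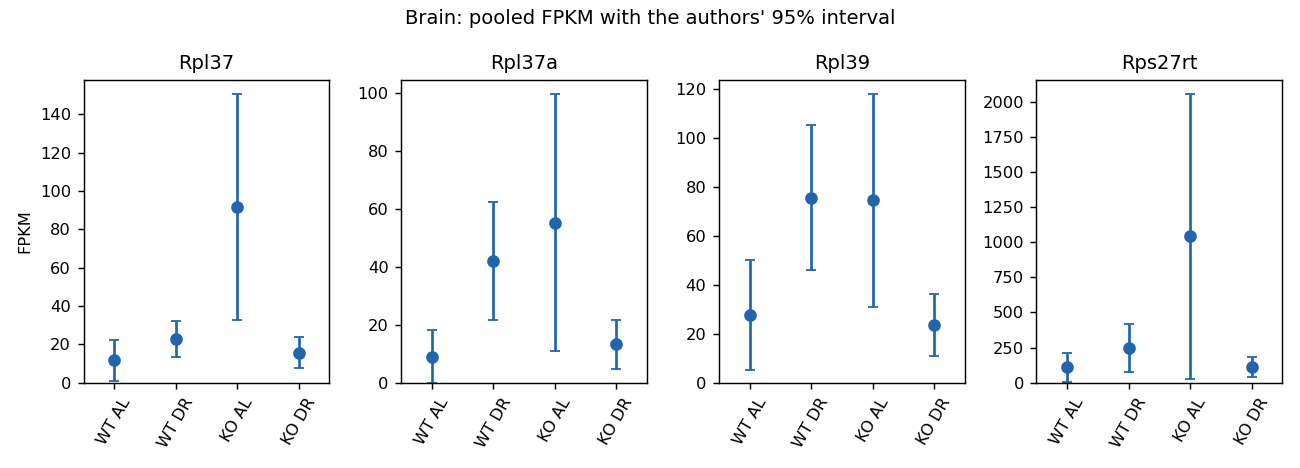
FPKM in the 4 brain groups (linear axes from 0, separate for each gene) of Rpl37, Rpl37a, Rpl39 and Rps27rt, with points at the pooled value and bars for the authors' 95% interval. KO AL is high and KO DR low for all 4 genes, and WT DR lies above WT AL for each of them with wide bars.

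WAT had the smallest median of the 4 tissues for KO AL against WT AL. There 64 of 72 members were higher, with a median of 0.44 (all entries -0.06, 45.2% higher), 0 past the FDR (1.29% of all entries), 3 at an unadjusted p under 0.05 and 4 by the smaller SE (5.94% of all). These 4 were Rps24, Rps23, Rps3a2 and Rps27rt, all with small subunit names. Rps24, which takes part in processing ribosomal RNA, had 170 FPKM in WT AL and 419 in KO AL (1.30, SE 0.50), Rps23 75.9 and 143 (0.91, SE 0.44) and the copy Rps3a2 212 and 410 (0.95, SE 0.45). The largest difference, that of Rpl3l (3.70), rested on values of 0.182 and 2.36 FPKM. The 7 mammary epithelium markers summed to 127 FPKM in KO AL against 17.0 in WT AL, beside the muscle markers given above, and their part was not tested.

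WT DR against WT AL in WAT had a median of 0.20 (all entries -0.17, 40.8% higher) with 49 of 71 higher, and the standard subunits had 0.19 alone and 0.41 with copies summed. No member passed or had an unadjusted p under 0.05 by either SE, where 0.57% and 2.75% of all entries passed, and the intervals of the WT DR group were the widest of the 16, with a median SD of 57.3% of the FPKM. Rps23 had 75.9 and 169 FPKM (1.15, SE 0.67), Rpsa, the laminin receptor protein of the small subunit, 110 and 279 (1.34, SE 0.79), and Rpl37a 51.6 and 109 (1.09, SE 0.77). KO DR lay above WT DR for 59 of 72 members, with a median of 0.33 (all entries 0.09) and 0 past the FDR (0.283% of all). One member, Rpl22l1, had an unadjusted p under 0.05 and passed with the smaller SE (1.13% of all), at 34.5 and 74.4 FPKM (1.11, SE 0.40). Rps13 (1.52, SE 1.01) and Rpl9 (1.19, SE 0.99) followed. KO DR lay above KO AL for 45 of 72 members, with a median of 0.12 (all entries 0.01; standard subunits 0.11 alone and 0.22 with copies summed), and the difference of differences had a median of -0.08 (all entries 0.13). In both, 0 members passed or had an unadjusted p under 0.05 by either SE. All entries passed at 0.707% and 7.39% in the first and at 0.121% and 1.2% in the second.

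Counted over tissues, 50 of the 71 members tested in all 4 tissues lay above WT AL in the KO-labelled AL group of each tissue, and 0 did so in fewer than 2. For WT DR against WT AL 23 were higher in all 4 tissues, for KO DR against WT DR 16 and for KO DR against KO AL 3. For WT DR, brain was the tissue in which the fewest members were higher (37 of 71). The share of all tested entries that were higher in all 4 tissues is not given here, so the counts over tissues cannot be judged against it. They are of the genes alone, without copies summed.

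The smaller SE changed the tissue counts too. It gave 61 up-regulated members in liver, 24 up-regulated and 9 down-regulated in muscle, 1 and 68 for brain, and 35 and 3 for WAT. The share of all tested entries that passed with this SE is not given here, so these counts cannot be judged against it.

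Members with and without the pyrimidine tract at an annotated start are given side by side. In liver of KO AL against WT AL the 13 with a tract had a median log2 difference of 0.76 and the 39 tested members with a window but no tract 0.87, and in WT DR against WT AL 1.10 and 0.88. In brain of KO DR against KO AL all 13 members with a tract were lower, with a median of -1.08, compared with -0.70 and 32 lower among the 39 without. A pyrimidine tract acts on translation, which FPKM does not measure, and these medians carry no test.

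Other genes of the same machinery were read from lists. In liver of KO AL against WT AL the median was 0.74 for 5 tested elongation factor genes, 0.56 for 30 initiation factor genes and 0.28 for 37 genes of ribosome biogenesis, and in WT DR against WT AL it was 0.57, 0.36 and 0.39, with 0 genes past the FDR in either. In muscle of KO AL against WT AL the medians were 0.09, 0.01 and -0.15, and 1 gene, the biogenesis factor Nip7, was up-regulated (1.21, SE 0.31). In muscle of KO DR against WT DR, Eif4ebp1, the mTOR target that holds back Eif4e, was up-regulated (1.51, SE 0.48) and Rrn3, needed by RNA polymerase I, was down-regulated (-0.51, SE 0.14). In brain of KO AL against WT AL the medians were 0.82, 0.19 and 0.20, and Eef2, which moves the ribosome along the mRNA, was up-regulated in KO DR against WT DR (1.48, SE 0.45), the comparison in which the members' median was -0.17. No gene of these 3 lists passed in a WAT comparison of genotype or diet.

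Genes of the mitochondrial ribosome and of the respiratory chain served as a comparison. For KO AL against WT AL the 72 tested mitochondrial ribosomal protein genes had a median of 0.33 in liver, 0.49 in muscle, 0.14 for brain, and -0.11 for WAT, below the cytosolic members in each (0.87, 0.66, 0.66 and 0.44). Nuclear respiratory chain genes had 0.62, 0.45, 0.39 and -0.17. In WAT under DR the order was turned. For KO DR against KO AL the mitochondrial ribosomal protein genes had 0.59 and the respiratory chain genes 0.67, beside 0.12 for the cytosolic members, and for WT DR against WT AL 0.60 and 0.65 beside 0.20. The 18 joined entries with ribosomal protein genes had medians of 0.81 and 0.82 in liver for KO AL and WT DR against WT AL, and the pseudogene entries 0.67 and 0.69, in the direction of the members. Differences between these lists were not tested.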

How the data were processed

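Poly(A) RNA libraries were sequenced on an Ion Proton. Per the labels and methods, reads were trimmed with cutadapt 1.5 and aligned to GRCm38, and the authors ran Cuffdiff 2.2.1, whose deposited table gives 1 FPKM per group with a 95% interval and a status. Reads that fit several copies of a gene were shared by that software, and no value per library and no depth was used here, since the table holds none. SD was (upper bound - FPKM)/2. log2 ratios, delta-method SEs and two-sided Wald tests were computed in Python 3.11.15 (numpy 2.4.6, pandas 2.3.3, scipy 1.17.1; plots with matplotlib 3.10.9), with Benjamini-Hochberg adjustment over all entries with status OK and FPKM above 0 in the groups compared and at least 1 in one of them. The scripts were tested on simulated data. Groups were taken from the labels. Named were members past the FDR (at most 6), or else the 3 with the smallest p, the 3 highest and lowest per tissue and the paralogs. Others, such as the members of counts of 5 or fewer, were chosen after their values were seen. Members and lists were chosen with earlier results of these data known. Alternatives changed the FPKM minimum, pseudocount, centring, SE, distribution, FDR, joined entries and members. Some members that the rule names are not reported here. Proteins were not analysed here.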

Additional observations from a re-analysis of the deposited data

Results flagged for a closer look

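In brain the genotype difference in FPKM changed with diet for 4 ribosomal protein genes by the test of the difference of differences. On the log2 scale these were -3.52 for Rpl37, -4.30 for Rpl37a, -3.13 for Rpl39 and -4.38 for Rps27rt. Each entry taken alone lay above WT AL under the KO label and below WT DR under that label when restricted. The 2 libraries of WT AL enter all 4 values. Summed with its named copy, Rpl39 had 463 FPKM in WT AL and 469 in KO AL, and 541 in WT DR and 269 in KO DR. Rpl37 with its copy had 473 in WT AL and 1647 in KO AL, and 455 in WT DR and 462 in KO DR, so KO DR was not below WT DR. Rps27 with its copies had 120 and 1093, and 263 and 121, in the same order of groups. Rpl37a has no named copy.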

How the results depend on the processing

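The interval's meaning mattered most. When the SD was divided by the square root of the number of libraries, the members passing in liver became 7 for KO AL against WT AL, 17 for WT DR against WT AL, 3 for KO DR against WT DR and 1 for KO DR against KO AL. In the first 3 of these comparisons in muscle they became 8, 5 and 11, in the 4 of brain 5, 6, 20 and 18, in the brain difference of differences 15, and in WAT 4 for KO AL against WT AL and 1 for KO DR against WT DR. Against the other tissues they became 33 in muscle and 38 in WAT, for which the share of all entries is not given. A pseudocount of 1, and an FPKM minimum of 5, each gave 1 member (Rpl37) for KO AL against WT AL in brain. At an FDR of 5% brain gave 0 for KO DR against WT DR and 1 in the difference of differences, and with a t distribution 0 for KO DR against WT DR, 0 for KO DR against KO AL and 0 in the difference of differences. The cause of the other changes was not tested. The other 169 of 192 counts stayed within 1.5 times of the reported count. No single member reversed, but only the pseudocount and the centring could alter the sign of a member's difference. Summing with copies was run on the medians and not on single members. Medians of the 16 comparisons moved by -0.23 to 0.17 when centred on all entries, and those of the 59 standard subunits by -0.43 to 0.22 when genes were summed with their copies, a setting chosen after seeing the data. The sign changed in 1 comparison (brain, WT DR against WT AL) under that setting and, for the same comparison, with transcripts of 600 bases or more. No paired analysis was possible because the table holds 1 pooled value per group, and leaving out a library was not possible for the same reason. Depth is unknown.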
